A study of Mus musculus with 21 samples.

Results

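The 44 collagen genes of C3H/10T1/2 mouse mesenchymal cells were described across cells carrying 6 mutant forms of histone H2B and cells carrying wild-type H2B. Members were chosen by name alone: every gene symbol made of Col, a number, a and a number, which took 44 of the 24091 genes in the deposited table of TPM (a level divided by transcript length and scaled to a fixed total per library). Of these, 25 averaged 1 TPM or more across all 21 libraries and were tested, 19 lay below that mean, and none was at 0 in every library. By class, tests covered 10 of 11 fibrillar genes, 5 of 9 FACIT (fibril-associated) genes, 3 of 6 type IV basement membrane genes, 3 of 6 type VI beaded filament genes and 1 of 3 network genes of types VIII and X. Among the smaller classes they covered 1 of 2 multiplexin genes, the 1 anchoring fibril gene (Col7a1), 0 of 4 transmembrane genes and 1 of 2 others.

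A collagen molecule is a triple helix of alpha chains, each made from a gene of its own. The chains are hydroxylated and assembled in the endoplasmic reticulum before they are secreted, trimmed and cross-linked. Fibrillar collagens form the fibrils of bone, skin, tendon and cartilage, and FACITs sit on the fibril surface. Type IV chains form the sheet of the basement membrane, and type VI chains form beaded filaments near the cell surface. C3H/10T1/2 cells can be driven towards bone, cartilage, fat or muscle, tissues that differ in which collagens they lay down: type I in bone, types II, IX and XI in cartilage.

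The study compared H2B forms in which a glutamate is replaced by lysine (K) or by glutamine (Q): E71K, E71Q, E76K, E76Q, E113K and E113Q. They were set against wild-type H2B (WT), and each of the 7 groups had 3 libraries. In the nucleosome, E76 faces histone H4 and E113 is part of the acidic patch. All groups were the same embryonic line grown in the same serum-containing medium, with no treatment named, and the labels call them mesenchymal progenitor cells. The sources used here do not name the promoter that drives the H2B, nor more than 1 cell line per genotype, so a difference between lines and an effect of the substitution cannot be told apart. Libraries of a group are described as independent replicates, and p-values measure the spread between these libraries.

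Start-site sequences are shown for 4 of the 6 collagen genes that were called in the same direction in all 6 mutants: 2 that were higher (Col11a1, which makes a chain of the cartilage fibril collagen XI, and Col4a5, a type IV chain) and 2 that were lower (Col7a1, the anchoring fibril collagen, and Col8a1, a short-chain network collagen). Each is taken from the 150 bases before the RefSeq start site on the gene's own strand, 5′ to 3′, build GRCm38.p6, ending where an annotated exon or the gene itself begins. The last base lies 62 bases before the start site in Col11a1, 50 in Col4a5 and 1 in Col7a1 and Col8a1. Col11a1 is on chr3:114030390-114030478 (+), Col4a5 on chrX:141475269-141475369 (+), Col7a1 on chr9:108953436-108953585 (+) and Col8a1 on chr16:57754738-57754887 (-). Capitals mark the letters GGGCGG or CCAAT on either strand (CCGCCC and ATTGG are their reverse complements).
Col11a1: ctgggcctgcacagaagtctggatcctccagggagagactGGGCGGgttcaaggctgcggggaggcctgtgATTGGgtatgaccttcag
Col4a5: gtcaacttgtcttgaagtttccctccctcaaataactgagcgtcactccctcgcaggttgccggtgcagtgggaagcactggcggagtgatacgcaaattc
Col7a1: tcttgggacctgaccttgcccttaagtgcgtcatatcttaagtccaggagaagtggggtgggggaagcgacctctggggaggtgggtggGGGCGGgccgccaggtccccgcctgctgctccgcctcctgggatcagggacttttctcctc
Col8a1: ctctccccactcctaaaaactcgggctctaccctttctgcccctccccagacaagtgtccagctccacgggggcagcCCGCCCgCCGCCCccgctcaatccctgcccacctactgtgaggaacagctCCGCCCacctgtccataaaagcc
The Col8a1 stretch, of 150 bases, holds GGGCGG on the reverse strand 3 times. The Col7a1 stretch, of 150 bases, holds 1 GGGCGG on the gene's own strand. The Col11a1 stretch, of 89 bases, holds 1 GGGCGG and 1 reversed CCAAT. The Col4a5 stretch, of 101 bases, holds neither. The stretches differ in length and in distance from the start site, so their matches cannot be compared between genes. A promoter window of 300 bases (250 before and 50 after the start) was at hand for 35 of the 44 members, in 38 windows. Outside the printed stretch, the Col4a5 window holds GGGCGG 30 bases and CCAAT 196 bases before the start site. The Col11a1 window holds a further GGGCGG 19 bases before its start site. The Col8a1 window holds a further reversed GGGCGG 170 bases before, and the Col7a1 window a reversed CCAAT upstream of its stretch. GGGCGG was present on either strand in 60.5% of these 38 windows, against 35.7% of all 32851 windows in the table, CCAAT in 34.2% against 37.4%, and TATAAA in 13.2% against 13.6%. These matches are letters in a window and are no evidence of a bound factor.

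Before the results, 4 libraries stood apart from the others of their group over all genes: E71K replicate 3, E71Q replicate 1, E76K replicate 3 and E113Q replicate 3. In E71K replicate 3, 84% of the tested collagen genes lay above both other E71K libraries, against 61% of all tested genes, and 15 of the 25 were at least 2-fold above the mean of the other E71K libraries. E71Q replicate 1 had 84% of the tested collagen genes below both other E71Q libraries, against 74.7% of all genes. The shares above both others were 56% in E76K replicate 3 (all genes 51%) and 68% in E113Q replicate 3 (all genes 26.1%). Other markers moved with these libraries. Summed TPM of 7 proliferation genes was 721, 515 and 352 in E71K replicates 1 to 3, 516, 532 and 273 in E76K replicates 1 to 3 and 535, 527 and 186 in E113Q replicates 1 to 3. It lay between 194.6 and 225 in E71Q libraries, 254 and 271 in E76Q libraries, 135 and 142 in E113K libraries and 659 and 727 in WT libraries. Summed TPM of 12 chondrocyte genes other than collagens (Sox9, Acan, Comp and others) was 154, 129 and 612 in E71K, 233, 559 and 668 in E71Q, 53.3 to 76.6 in E76K, 348 to 375 in E76Q, 77.2 to 82.6 in E113K, 114, 116 and 317 in E113Q and 54.4 to 64.5 in WT libraries. The 10 mesenchymal markers summed to between 4890 and 9297 TPM in every library, a sum carried by Vim and Ly6a, and single members of the list did not follow it. Thy1 had at most 1.24 TPM in E71K, E71Q and E76Q libraries, against 65.5 to 66.4 TPM in WT libraries. Eng had at most 2.30 TPM in E71K, E71Q, E76K and E76Q libraries, against 19.7 to 22.2 TPM in WT libraries. The 7 osteoblast genes summed to 112 to 1063 TPM in E71Q and 121 to 138 TPM in E76Q, against 11.9 to 17.9 TPM in WT libraries. They summed to 11.4 to 237.5 TPM in E71K, 20.6 to 55.7 in E76K, 25.8 to 32.6 in E113K and 20.7 to 64.9 in E113Q. Of these 7, 4 averaged under 1 TPM in both E71Q and E76Q. The 5 adipocyte genes summed to 79.7 to 123 TPM in E76K and 89 to 101 TPM in E113K, against 19.9 to 22.6 TPM in WT libraries. They summed to 4.81 to 6.16 TPM in E71K, 30.4 to 35.7 in E71Q, 16.3 to 17.1 in E76Q and 35.8 to 53.7 in E113Q. Of these 5, 3 averaged under 1 TPM in E76K and 2 in E113K. The 5 smooth muscle genes summed to 482 to 583 TPM in E76Q, against 203 to 211 TPM in WT libraries. Their sums also lay above WT in E76K (268 to 333) and E113K (336 to 348). They lay below it in E71K (111 to 194), E71Q (64.5 to 81.7) and E113Q (176 to 187). In E76Q 3 of these 5 averaged under 1 TPM, and of the 3 tested 1 was called higher and 1 lower than WT. Endothelial markers summed to at most 2.23 TPM. The 6 epithelial genes reached 488 TPM in E71K and 365 in E71Q libraries, against at most 14.4 in WT libraries. Few members carried that sum: 4 of the 6 averaged under 1 TPM in E71K and 5 in E71Q. Of the 3 epithelial genes tested, 1 was called higher and 2 lower than WT in both E71K and E71Q. The 3 haematopoietic genes reached 104 TPM in E76K libraries, against at most 17.8 in WT libraries, and 2 of the 3 averaged under 1 TPM in E76K. They reached 88.4 TPM in E71Q, 43.8 in E76Q, 36.8 in E71K, 6.75 in E113Q and 1.57 in E113K libraries. No marker list was at 0 throughout, and the part these markers have in the collagen results was not tested. Every library sums to the same total, so read depth is unknown, and values of 0 are given with no counting limit.

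Collagen transcripts took a larger share of all TPM in every mutant than in WT. The 44 genes made up 0.704 ± 0.228% of TPM in E71K, 0.818 ± 0.12% in E71Q, 0.83 ± 0.045% in E76K, 0.848 ± 0.0331% in E76Q, 0.756 ± 0.0169% in E113K and 0.701 ± 0.0517% in E113Q libraries, against 0.457 ± 0.0194% in WT libraries (mean ± SD, n = 3 each). The lowest mutant library, in E71K, held 0.493% and the highest WT library 0.479%, so no mutant library overlapped WT; with 3 libraries against 3, an exact two-sided permutation test cannot give a p below 0.1. The fibrillar class made up most of this total, with 0.709% of TPM in E76K and between 0.539% and 0.594% in the other mutants, against 0.296% in WT libraries. Col1a2 alone held 55.6 ± 0.993% of collagen TPM in E76K and 42.5 ± 2.83% in E71K, against 24.8 ± 0.384% in WT. In the other mutants it held between 31.4% and 33.3%. The summed share thus follows the most abundant genes and is no measure of the typical member. In E76K the median log2 fold change of the 25 tested members was -0.31. FACITs ran from 0.00531% in E76K to 0.0381% in E76Q, with 0.0123% in WT, while type VI genes ran from 0.0799% in E76K to 0.213% in E71Q, with 0.102% in WT. Type IV genes held 0.0433% in E113K and 0.0187% in E71K, with 0.0363% in WT. One small RNA gene, Mir6236, took between 2.19% and 30.6% of a library's TPM. With it left out, the collagen share was 0.794% in E71K, 0.928% in E71Q, 0.857% in E76K, 0.957% in E76Q, 0.776% in E113K and 0.746% in E113Q libraries, against 0.482% in WT libraries. The library at 30.6% was E71K replicate 2, the lowest mutant library above, with a collagen share of 0.711% without Mir6236. In E71Q replicate 1, which stood apart, Mir6236 took 21.2%, against 9.9% and 5.47% in replicates 2 and 3. Without it the collagen shares of E71Q replicates 1 to 3 were 0.876%, 0.925% and 0.983%.

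Gene by gene, differences were tested with limma on log2(TPM + 1), with p-values adjusted by the Benjamini-Hochberg method over all 12192 tested genes and a gene called at an adjusted p below 0.05; fold changes below are on that log2 scale, which understates the change of low genes, with SE of the fit. In E71K cells 7 of the 25 tested collagen genes were called higher and 4 lower than in WT, where 12.5% of all tested genes were called higher and 14.2% lower. E71Q cells had 14 higher and 5 lower (all genes 20.7% and 23.5%), and E76Q cells 15 higher and 4 lower (all genes 22% and 22.4%). E76K cells had 5 higher and 7 lower (all genes 23.5% and 9.67%), E113K cells 8 higher and 5 lower (all genes 30.3% and 20.7%), and E113Q cells 9 higher and 6 lower (all genes 17.9% and 12.7%). Near the share of all genes lay the higher calls in E76K (5 of 25) and E113K (8 of 25) and the lower calls in E71K (4 of 25), E71Q (5 of 25) and E113K (5 of 25). The median log2 fold change of the 25 was 0.81 in E71Q and 1.08 in E76Q, where the medians of all tested genes were 0 and 0.02, and it was -0.31 in E76K, where that of all genes was 0.16. In E71K, E113K and E113Q the medians were 0.10, 0 and 0.46, beside 0, 0.13 and 0.06 for all genes. Without the 4 libraries that stood apart, the counts higher and lower were 7 and 10 in E71K, 19 and 5 in E71Q, 7 and 15 in E76K, 17 and 5 in E76Q, 10 and 8 in E113K and 10 and 9 in E113Q. The shares of all genes above are from the fit of all 21 libraries. No such share is given for the fit without the 4, so its counts cannot be read as a change particular to collagen genes. All 6 comparisons share the same 3 WT libraries.

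**Figure D1:**
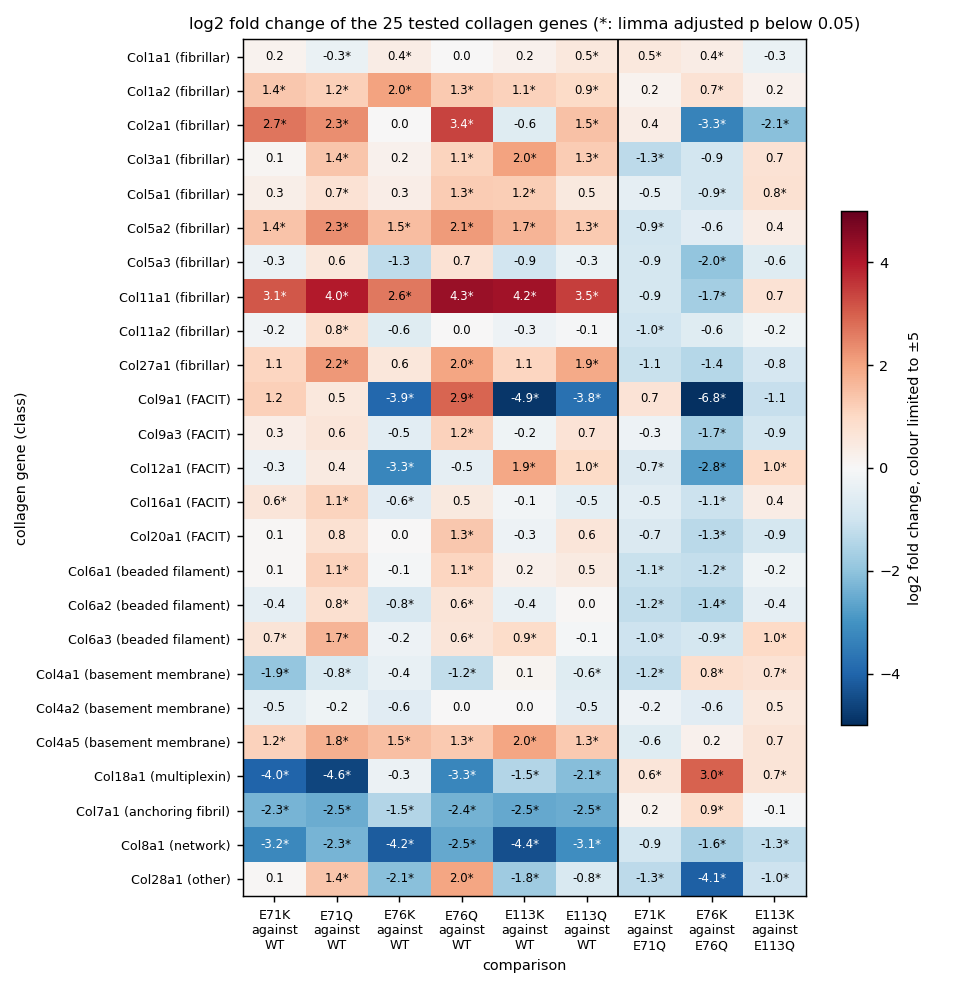
Log2 fold change on log2(TPM + 1) of the 25 tested collagen genes (rows, by class) in 6 comparisons of a mutant with WT and 3 of lysine with glutamine at the same residue (columns). Asterisks mark calls at a limma adjusted p below 0.05; Col1a2, Col5a2, Col11a1 and Col4a5 were called higher in all 6 mutants and Col7a1 and Col8a1 lower, while the Col9a1 row holds values from -4.88 in E113K to 2.90 in E76Q.

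Across the 6 mutants, 4 members were called higher in every one (Col1a2, Col4a5, Col5a2 and Col11a1, 16% of the 25, against 3.65% of all tested genes) and 2 were called lower in every one (Col7a1 and Col8a1, 8% against 2.95%). A further 6 were called higher in some mutants and lower in others (Col1a1, Col6a2, Col9a1, Col12a1, Col16a1 and Col28a1, 24% against 9.31%), and 2 were called in no mutant (Col4a2 and Col5a3, 8% against 20.5%). The limma F test across the 7 groups called 24 of the 25, where it called 77.1% of all genes; Col4a2, a type IV chain, was not called (adjusted p = 0.109). Without the 4 libraries that stood apart, Col27a1 joined the genes higher in all 6 mutants and Col18a1 those lower in all 6.

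Type I collagen, the main fibril of bone, skin and tendon, is made of chains from Col1a1 and Col1a2, and these had the highest levels of all members. Col1a2 had 2997, 2157 and 3717 TPM in E71K libraries, 2378, 2546 and 2843 in E71Q, 4402, 4716 and 4708 in E76K and 2649, 2838 and 2841 TPM in E76Q libraries. Col1a2 stood at 2440, 2525 and 2583 TPM in E113K and 2226, 2211 and 2128 in E113Q libraries, against 1105, 1167 and 1125 in WT libraries. Every mutant library lay above every WT library, and the E76K libraries lay above all others. Its rise was largest in E76K, 2.02 ± 0.13, adjusted p = 1.65e-09, and smallest in E113Q, 0.95 ± 0.13, adjusted p = 2.68e-05. Col1a1 had 1707, 1242 and 1403 TPM in E71K libraries, 1095, 924 and 987 in E71Q, 1661, 1976 and 1395 in E76K and 1218, 1324 and 1326 TPM in E76Q libraries. Col1a1 stood at 1467, 1455 and 1496 TPM in E113K and 2021, 1866 and 1686 in E113Q libraries, against 1231, 1330 and 1262 in WT libraries. The E76K, E113K and E113Q libraries lay above and the E71Q libraries below all WT libraries, while those of E71K and E76Q overlapped WT. Col1a1 was called higher in E113Q (0.54 ± 0.12, adjusted p = 0.00311) and E76K (0.38 ± 0.12, adjusted p = 0.025) and lower in E71Q (-0.35 ± 0.12, adjusted p = 0.0297). The E76K call was lost under a median-ratio rescaling (log2 fold change 0.22, adjusted p = 0.233) and without E76K replicate 1 (adjusted p = 0.0577) or 2 (adjusted p = 0.137) or WT replicate 1 (adjusted p = 0.081) or 3 (adjusted p = 0.0673). The E71Q call was lost with Mir6236 left out (adjusted p = 0.127) and without any 1 WT library (adjusted p = 0.0513 to 0.0905) or E71Q replicate 2 (adjusted p = 0.115) or 3 (adjusted p = 0.0718).

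Type III and type V collagens join type I in mixed fibrils; type V sits inside the fibril and limits its width. Col3a1, the only chain of type III, had 284, 217 and 712 TPM in E71K, 451, 1085 and 1311 in E71Q, 309, 303 and 579 in E76K and 677, 746 and 745 TPM in E76Q libraries. Col3a1 stood at 1284, 1330 and 1357 TPM in E113K and 714, 732 and 943 in E113Q libraries, against 315, 349.6 and 323 in WT libraries. The E71K and E76K libraries straddled the WT values, and the other mutants lay above them. It rose in E113K (2.00 ± 0.38, adjusted p = 0.00035), E71Q (1.39 ± 0.38, adjusted p = 0.007), E113Q (1.26 ± 0.38, adjusted p = 0.0181) and E76Q (1.13 ± 0.38, adjusted p = 0.0229). The E113Q call was lost without E113Q replicate 3 (log2 fold change 1.13, adjusted p = 0.0661) or WT replicate 1 or 3 (adjusted p = 0.0543 and 0.0522). The E76Q call was lost without E76Q replicate 2 or 3 (adjusted p = 0.0596 and 0.0593) or WT replicate 1 or 3 (adjusted p = 0.0609 and 0.0584). Col5a2 had 170, 120 and 289.5 TPM in E71K, 218, 406 and 462 in E71Q, 198, 203 and 196 in E76K and 281, 300.2 and 305 TPM in E76Q libraries. Col5a2 stood at 212, 221 and 235 TPM in E113K and 155, 160.3 and 195 in E113Q libraries, against 65.8, 71.4 and 65.9 in WT libraries. No mutant library came down to the WT range, and the log2 rise ran from 1.31 ± 0.25 in E113Q (adjusted p = 0.000804) to 2.33 ± 0.25 in E71Q (adjusted p = 1.15e-06). Col5a1, the partner chain, averaged 83.2 ± 37.2 TPM in E71K, 109 ± 24.5 in E71Q, 80.6 ± 8.4 in E76K and 154 ± 7.58 TPM in E76Q. Col5a1 averaged 152 ± 4.37 TPM in E113K and 91.1 ± 18.8 in E113Q, against 63.6 ± 2.72 TPM in WT libraries (SD, n = 3 each). It was called higher in E76Q (1.27 ± 0.23, adjusted p = 0.000256), E113K (1.24 ± 0.23, adjusted p = 0.000242) and E71Q (0.74 ± 0.23, adjusted p = 0.0132), the last of which was lost without E71Q replicate 3 (log2 fold change 0.60, adjusted p = 0.0686). Col5a3, a further type V chain, averaged between 15.3 ± 6.27 TPM in E76K and 60.9 ± 1.81 TPM in E76Q, with 36.8 ± 2.52 TPM in WT, and was not called in any mutant. Col3a1 and Col5a2 lie 24.6 kb apart on chromosome 1 in GRCm38.p6.

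Type XI collagen seeds the thin fibrils of cartilage, and Col11a1 makes one of its chains. On the log2(TPM + 1) scale Col11a1 had the largest rise of the fibrillar genes in each of the 6 mutants. It had 54.5, 39.3 and 225 TPM in E71K, 59.97, 201 and 247 in E71Q, 42.1, 46.2 and 86.8 in E76K and 165, 184 and 195 TPM in E76Q libraries. Col11a1 stood at 144, 175 and 184 TPM in E113K and 70.5, 68.6 and 211 in E113Q libraries, against 8.54, 7.26 and 8.85 in WT libraries. All 18 mutant libraries lay above the 3 WT libraries, and in both E71K and E113Q the highest library was replicate 3, which stood apart. On the log2 scale the rise was 4.31 ± 0.57, adjusted p = 1.29e-05 in E76Q, 4.19 ± 0.57, adjusted p = 1.47e-05 in E113K, 3.98 ± 0.57, adjusted p = 2.74e-05 in E71Q, 3.47 ± 0.57, adjusted p = 0.000174 in E113Q, 3.12 ± 0.57, adjusted p = 0.000457 in E71K and 2.62 ± 0.57, adjusted p = 0.00204 in E76K. It was 2.36 in E71K without replicate 3 and 4.61 in E71Q without replicate 1. The mean TPM was 7.11-fold to 22.1-fold that of WT. By mean TPM the rise in E113Q was larger for Col27a1, at 19.7-fold, than for Col11a1, at 14.2-fold. Col11a2, another type XI chain, was called higher in E71Q and in no other mutant, at 5.59 ± 2.11 TPM in E71Q against 2.57 ± 0.438 TPM in WT (0.83 ± 0.27, adjusted p = 0.018), a call lost without E71Q replicate 2 (adjusted p = 0.0883) or 3 (adjusted p = 0.0805) or WT replicate 1 (adjusted p = 0.0705).

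Type II collagen, the main fibril of cartilage, is made from Col2a1. Its level was 248.9, 183 and 504 TPM in E71K, 207, 216 and 243 in E71Q, 55.5, 57.9 and 27.1 in E76K and 436, 478 and 458 TPM in E76Q libraries. Col2a1 stood at 29.1, 27.2 and 27.1 TPM in E113K and 111, 100.3 and 161 in E113Q libraries, against 44.4, 42.1 and 43.6 in WT libraries. Both E71 mutants, E76Q and E113Q lay above WT without overlap, E76K libraries lay on both sides of WT, and all E113K libraries lay below WT. The gene rose in E76Q (3.37 ± 0.29, adjusted p = 8.66e-08), E71K (2.69 ± 0.29, adjusted p = 1.55e-06), E71Q (2.33 ± 0.29, adjusted p = 6.91e-06) and E113Q (1.47 ± 0.29, adjusted p = 0.00108). In E113K the adjusted p was 0.0877. Col27a1, a fibrillar collagen of cartilage, averaged 2.43 ± 3.09 TPM in E71K, 5.04 ± 1.83 in E71Q, 0.919 ± 0.452 in E76K and 4.13 ± 0.689 TPM in E76Q. Col27a1 averaged 1.71 ± 0.265 TPM in E113K and 5.62 ± 6.57 in E113Q, against 0.285 ± 0.0564 TPM in WT (SD, n = 3 each). It rose in E71Q (2.18 ± 0.54, adjusted p = 0.00362), E76Q (1.99 ± 0.54, adjusted p = 0.00684) and E113Q (1.91 ± 0.54, adjusted p = 0.0125). The E113Q value rests on replicate 3, at 13.2 TPM where the other E113Q libraries had 1.80 and 1.85; without it the log2 fold change was 1.14 (adjusted p = 0.0765). Col24a1, the remaining fibrillar member, was at 0.0751 TPM or less in every library. The 12 chondrocyte genes were also higher in summed TPM in E71K, E71Q, E76Q, E113Q and E113K than in WT libraries, as given above. Their E76K sums overlapped WT. Of the 7 chondrocyte genes tested, 4 were called higher in E71K, 6 in E71Q, 5 in E76Q and 2 in E113Q. In E76K and E113K 0 were called higher, and 0 were called lower in any mutant. The part of these genes in the type II, IX and XI results was not tested.

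**Figure D2:**
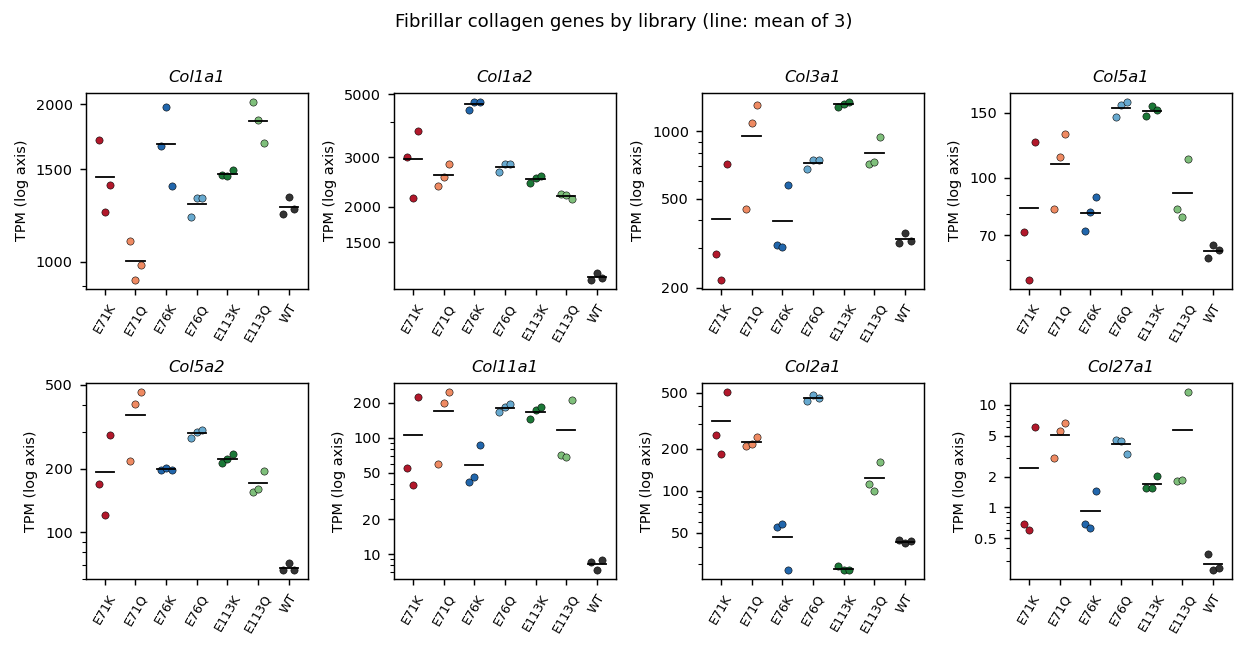
TPM (log axis) of 8 fibrillar collagen genes in each library (points, by group) with the mean of 3 libraries (line). For Col1a2, Col5a2, Col11a1 and Col27a1 all mutant points lie above the WT points, while Col2a1 in E113K lies below WT at 27.1 to 29.1 TPM.

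FACITs bind to the surface of fibrils, and their tested members did not move together. Type IX collagen coats cartilage fibrils, and its Col9a1 chain had 49.9, 39.9 and 225 TPM in E71K, 21.7, 66.6 and 73.7 in E71Q, 0.961, 1.12 and 1.62 in E76K and 246, 267 and 247 TPM in E76Q libraries. Col9a1 stood at 0.170, 0.128 and 0.153 TPM in E113K and 0.752, 0.876 and 3.91 in E113Q libraries, against 32.4, 34.3 and 32.2 in WT libraries. The E71K and E76Q libraries lay above WT, the E76K, E113K and E113Q libraries below it, and E71Q straddled it; E71K was not called (adjusted p = 0.104). It rose in E76Q (2.90 ± 0.52, adjusted p = 0.000268) and fell in E113K (-4.88 ± 0.52, adjusted p = 9.21e-07), E76K (-3.94 ± 0.52, adjusted p = 1.55e-05) and E113Q (-3.75 ± 0.52, adjusted p = 2.94e-05). Mean TPM in E113K was 219-fold lower than in WT and in E76Q 7.68-fold higher. Col9a3, another type IX chain, was called in E76Q and in no other mutant, at 7.02 ± 1.13 TPM in E76Q against 2.56 ± 0.324 TPM in WT (1.16 ± 0.42, adjusted p = 0.0318), a call lost when E76Q replicate 1 or 2 or any WT library was left out (adjusted p = 0.0615 to 0.0887). Col9a2, the remaining type IX chain, was below the filter; it had 2.46, 2.55 and 2.01 TPM in E76Q libraries and 2.69 TPM in E71K replicate 3, against at most 0.0269 TPM in WT libraries.

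Type XII and type XVI collagens are FACITs of skin, tendon and other connective tissue. Col12a1 had 16.6, 10.1 and 10.3 TPM in E71K, 17.6, 21.5 and 23.2 in E71Q, 0.767, 0.525 and 0.732 in E76K and 9.44, 10.1 and 12.5 TPM in E76Q libraries. Col12a1 stood at 56.8, 66.7 and 58.9 TPM in E113K and 37.3, 33.8 and 21.9 in E113Q libraries, against 14.8, 13.5 and 16.9 in WT libraries. E76K lay far below and both E113 mutants above every WT library. The fall in E76K was -3.26 ± 0.19, adjusted p = 5.12e-10, a 22.3-fold lower mean TPM, and the rises were 1.95 ± 0.19, adjusted p = 3.85e-07 in E113K, a 4.03-fold higher mean TPM, and 0.97 ± 0.19, adjusted p = 0.00105 in E113Q. Col16a1 had 92.7, 74.4 and 181 TPM in E71K, 133, 164 and 169 in E71Q, 43.3, 44.7 and 53.7 in E76K and 107, 99.8 and 91.9 TPM in E76Q libraries. Col16a1 stood at 65.6, 60.8 and 67.2 TPM in E113K and 48.0, 50.01 and 51.9 in E113Q libraries, against 68.1, 73.0 and 72.0 in WT libraries. Its E71K, E71Q and E76Q libraries lay above WT and its E76K, E113K and E113Q libraries below it. It rose in E71Q (1.11 ± 0.21, adjusted p = 0.000455) and E71K (0.60 ± 0.21, adjusted p = 0.0454) and fell in E76K (-0.58 ± 0.21, adjusted p = 0.0424). The E71K call was lost in 20 alternatives, with a log2 fold change of 0.22 without E71K replicate 3 (adjusted p = 0.201). The E76K call was lost in 16, among them any E76K library left out (adjusted p = 0.0502 to 0.115) and any WT library left out (adjusted p = 0.0789 to 0.101). Col20a1 was called only in E76Q, at 5.05 ± 1.28 TPM in E76Q against 1.39 ± 0.475 TPM in WT (1.34 ± 0.37, adjusted p = 0.00731). Among FACITs below the filter, Col22a1, a collagen of tissue junctions, had 2.43, 2.74 and 2.78 TPM in E76Q libraries and at most 0.548 TPM in any other library, Col14a1 reached 1.39 TPM in E71Q, and Col19a1 reached 0.144 TPM in E71K and was listed at 0 in all WT libraries.

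**Figure D3:**
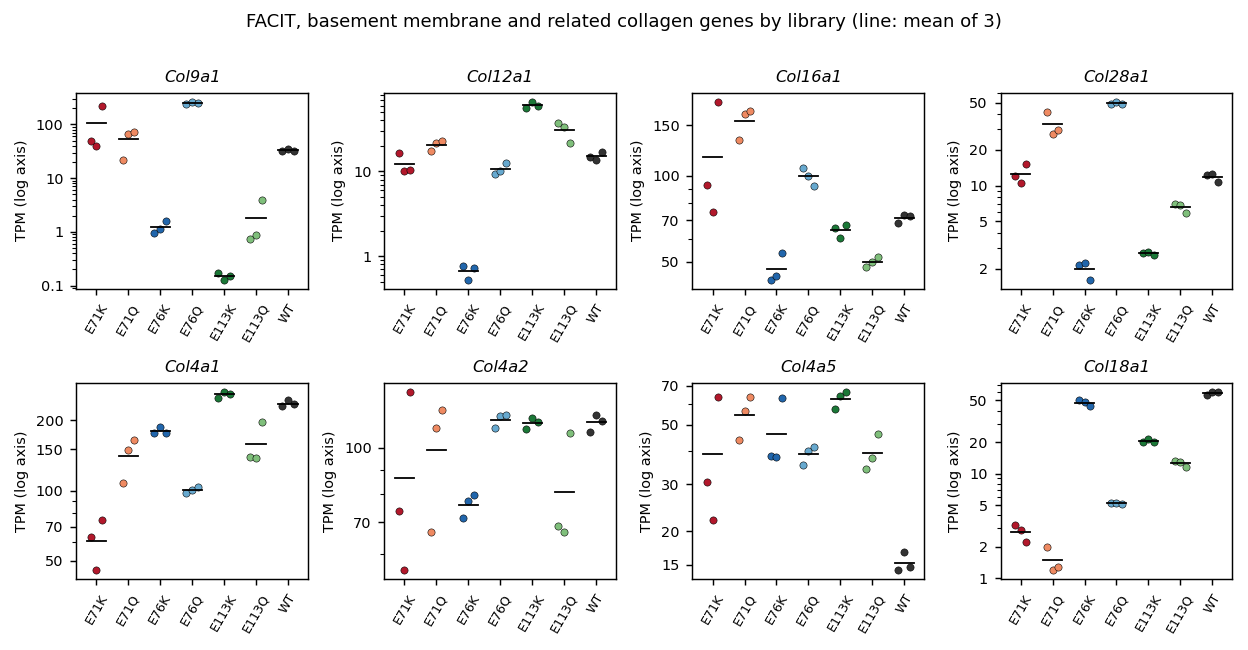
TPM (log axis) of FACIT, type IV and related collagen genes in each library (points) with the mean of 3 libraries (line). Col9a1 spans from 0.128 TPM in E113K to 267 TPM in E76Q, Col12a1 is lowest in E76K, at 0.525 to 0.767 TPM, and Col18a1 in E76K, at 44.0 to 49.98 TPM, lies nearest to WT, at 56.7 to 59.99 TPM.

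In the basement membrane class, the chains did not change alike. Col4a1 and Col4a2 encode the chains of the ubiquitous type IV network and lie head to head on mouse chromosome 8, where their RefSeq start sites at 11312826 and 11312805 (GRCm38.p6) face past each other by 22 bases. Col4a1 had 63.0, 45.6 and 74.6 TPM in E71K, 108, 149 and 164 in E71Q, 176, 186 and 177 in E76K and 97.2, 100.1 and 104 TPM in E76Q libraries. Col4a1 stood at 249.5, 263 and 259 TPM in E113K and 139, 137 and 197 in E113Q libraries, against 229, 242 and 234 in WT libraries. All groups but E113K lay below WT. It fell in E71K (-1.95 ± 0.17, adjusted p = 7.83e-08), E76Q (-1.22 ± 0.17, adjusted p = 2.08e-05), E71Q (-0.76 ± 0.17, adjusted p = 0.00153) and E113Q (-0.59 ± 0.17, adjusted p = 0.0132), and the E113Q call was lost without E113Q replicate 1 or 2 (adjusted p = 0.0563 and 0.0605). Col4a2 had 73.8, 55.6 and 131 TPM in E71K, 66.9, 109.9 and 120 in E71Q, 71.4, 77.6 and 79.6 in E76K and 109.8, 116 and 117 TPM in E76Q libraries. Col4a2 stood at 109.5, 116 and 113.1 TPM in E113K and 68.7, 66.7 and 107 in E113Q libraries, against 108, 117 and 114 in WT libraries. The E76K and E113Q libraries lay below WT and the other groups overlapped it, and no mutant was called. Without stated strandedness, reads from the short shared stretch of these genes cannot be assigned to one of them.

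Col4a5, a chain of the specialised type IV network of kidney and skin, had 30.6, 22.1 and 63.5 TPM in E71K, 43.8, 56.5 and 63.4 in E71Q, 38.3, 37.8 and 63.1 in E76K and 35.3, 40.0 and 41.5 TPM in E76Q libraries. Col4a5 stood at 57.1, 64.1 and 66.2 TPM in E113K and 34.2, 37.6 and 46.3 in E113Q libraries, against 14.3, 16.8 and 14.7 in WT libraries. Every mutant library was above every WT library. The log2 rise ran from 1.16 ± 0.27 in E71K (adjusted p = 0.00383) to 1.97 ± 0.27 in E113K (adjusted p = 1.74e-05). The E71K call was lost when only E71K and WT libraries entered the fit (adjusted p = 0.122). Col4a6, its neighbour 1.27 kb away on the X chromosome, was at 0.229 TPM or less in every library, as were Col4a3 and Col4a4.

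Col18a1, a multiplexin of basement membranes whose cut end is endostatin, had 3.24, 2.89 and 2.20 TPM in E71K, 2.00, 1.19 and 1.28 in E71Q, 49.98, 48.1 and 44.0 in E76K and 5.30, 5.24 and 5.14 TPM in E76Q libraries. Col18a1 stood at 20.2, 21.5 and 20.0 TPM in E113K and 13.4, 12.9 and 11.7 in E113Q libraries, against 56.7, 59.7 and 59.99 in WT libraries. No mutant library reached the WT range, and the groups separated from each other without overlap in the order E71Q, E71K, E76Q, E113Q, E113K, E76K and WT, low to high. It fell in E71Q (-4.60 ± 0.12, adjusted p = 9.14e-15), E71K (-3.99 ± 0.12, adjusted p = 4.98e-14), E76Q (-3.26 ± 0.12, adjusted p = 7.72e-13), E113Q (-2.13 ± 0.12, adjusted p = 2.73e-10) and E113K (-1.47 ± 0.12, adjusted p = 2.81e-08), with mean TPM 39.5-fold, 21.2-fold, 11.3-fold, 4.65-fold and 2.86-fold lower than in WT. In E76K the mean was 47.4 ± 3.06 TPM, against 58.8 ± 1.82 TPM in WT (log2 fold change -0.31, adjusted p = 0.0552). It was called lower in 9 of 31 alternatives, among them the replicate block (adjusted p = 0.04), a pseudocount of 5, median-ratio rescaling, only E76K and WT libraries in the fit and the 4 libraries that stood apart left out. Col15a1, the other multiplexin, was below the filter and reached 1.22 TPM in E113K, against at most 0.321 TPM in WT libraries. Col7a1, which forms the fibrils that anchor epithelial basement membranes to the dermis, had 0.867, 0.420 and 0.345 TPM in E71K, 0.576, 0.217 and 0.302 in E71Q, 1.75, 2.18 and 1.41 in E76K and 0.389, 0.689 and 0.400 TPM in E76Q libraries. Col7a1 stood at 0.260, 0.306 and 0.401 TPM in E113K and 0.523, 0.403 and 0.250 in E113Q libraries, against 6.81, 5.67 and 7.65 in WT libraries. WT stood above all mutants, and E76K stood between WT and the rest. The fall was -1.47 ± 0.18, adjusted p = 5.8e-06 in E76K and between -2.33 and -2.54 on the log2 scale in the other mutants, each with an SE of 0.18.

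Network collagens form lattices; type VIII is made around vessels and in the cornea, and type X in hypertrophic cartilage. Col8a1 had 1.81, 1.61 and 2.54 TPM in E71K, 1.68, 6.85 and 7.02 in E71Q, 0.543, 0.640 and 0.428 in E76K and 3.22, 3.72 and 4.12 TPM in E76Q libraries. Col8a1 stood at 0.231, 0.244 and 0.492 TPM in E113K and 2.75, 3.28 and 1.03 in E113Q libraries, against 24.6, 27.0 and 27.8 in WT libraries. The highest mutant library held 7.02 TPM and the lowest WT library 24.6 TPM. It fell most in E113K (-4.38 ± 0.33, adjusted p = 1e-08) and E76K (-4.16 ± 0.33, adjusted p = 2.29e-08), by 82-fold and 49.3-fold in mean TPM, and least in E71Q (-2.31 ± 0.33, adjusted p = 2.24e-05). Its partner chain Col8a2 was below the filter, with 4.10, 4.11 and 3.12 TPM in E113K and 1.54, 1.66 and 1.05 TPM in E113Q libraries, against at most 0.115 TPM in WT libraries and in the other mutants. In every E113K library Col8a2 stood above Col8a1, and in every WT library below it. Col10a1 had 3.87, 2.89 and 1.24 TPM in E76K libraries and at most 0.856 TPM elsewhere. Neither Col8a2 nor Col10a1 was tested in the main comparison, because their means over all libraries were under 1 TPM.

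**Figure D4:**
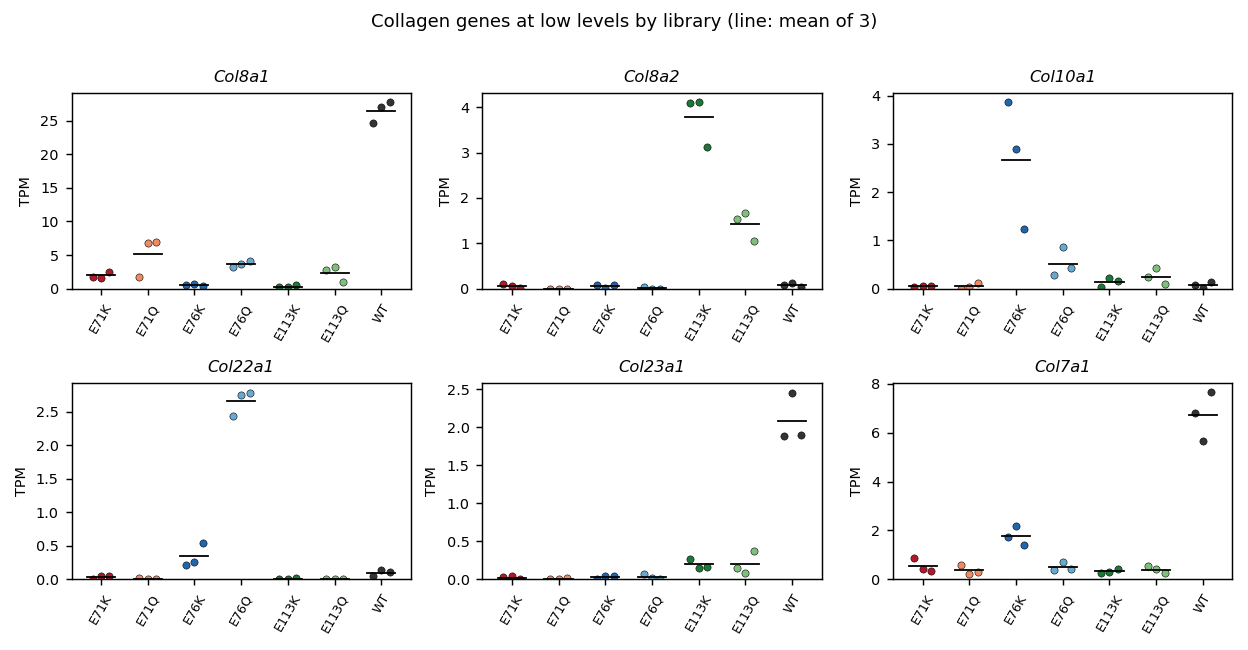
TPM (linear axis) of 6 collagen genes at low levels in each library (points) with the mean of 3 libraries (line). WT libraries hold the highest values of Col8a1, Col7a1 and Col23a1, E113K those of Col8a2, E76K those of Col10a1 and E76Q those of Col22a1.

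Type VI collagen is assembled from Col6a1, Col6a2 and a Col6a3-like chain into microfilaments around cells. Col6a1, the most abundant of them, had 397, 317 and 888 TPM in E71K, 909, 1060 and 1167 in E71Q, 359, 368 and 626 in E76K and 967, 1021 and 978 TPM in E76Q libraries. Col6a1 stood at 548, 540.4 and 562 TPM in E113K and 531, 567 and 881 in E113Q libraries, against 454, 519 and 433 in WT libraries. The E71Q, E76Q, E113K and E113Q libraries lay above WT, and E71K and E76K lay on both sides of it. In E71Q all of Col6a1 (1.15 ± 0.29, adjusted p = 0.00376), Col6a2 (0.81 ± 0.25, adjusted p = 0.016) and Col6a3 (1.68 ± 0.23, adjusted p = 2.01e-05) rose. In E76Q all of them were called higher as well, by 1.08 ± 0.29, 0.64 ± 0.25 and 0.62 ± 0.23, but the Col6a2 and Col6a3 calls did not hold in every alternative. The Col6a2 call (adjusted p = 0.0489) was lost in 19 alternatives, among them any E76Q library left out (adjusted p = 0.0869 to 0.121), any WT library left out (adjusted p = 0.0687 to 0.123), no filter on low genes (adjusted p = 0.073) and no trend (adjusted p = 0.0531). The Col6a3 call (adjusted p = 0.0396) was lost in 6 alternatives, among them any WT library left out (adjusted p = 0.0673 to 0.0947) and E76Q replicate 2 or 3 left out (adjusted p = 0.0822 and 0.131). Col6a3 averaged 162 ± 13.5 TPM in E113K against 85.3 ± 4.22 TPM in WT, a rise of 0.91 ± 0.23 (adjusted p = 0.00375). In E71K its call stood at an adjusted p that rounds to 0.05 and was lost in 24 alternatives, with 136, 86.0 and 205 TPM in E71K libraries, and without replicate 3 it was 0.34 on the log2 scale (adjusted p = 0.25). Col6a2 averaged 274 ± 79.2 TPM in E76K against 463 ± 34.8 TPM in WT, a fall of -0.79 ± 0.25, adjusted p = 0.0239, lost without E76K replicate 1 or 2 or WT replicate 1 or 2 (adjusted p = 0.0564 to 0.0922). Col6a4, Col6a5 and Col6a6 were at 0.162 TPM or less in every library.

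Col28a1, a collagen related to type VI and found in peripheral nerve, had 12.1, 10.5 and 15.2 TPM in E71K, 42.1, 27.2 and 29.7 in E71Q, 2.14, 2.26 and 1.62 in E76K and 48.3, 50.9 and 48.4 TPM in E76Q libraries. Col28a1 stood at 2.73, 2.78 and 2.62 TPM in E113K and 7.06, 6.86 and 5.88 in E113Q libraries, against 12.4, 12.5 and 10.7 in WT libraries. E71Q and E76Q lay above WT, E76K and both E113 mutants below it, and E71K overlapped it. The rises were 1.97 ± 0.15, adjusted p = 1.26e-08 in E76Q and 1.38 ± 0.15, adjusted p = 9.64e-07 in E71Q. The falls were -2.10 ± 0.15, adjusted p = 5.88e-09 in E76K, -1.79 ± 0.15, adjusted p = 3.85e-08 in E113K and -0.76 ± 0.15, adjusted p = 0.000828 in E113Q. Of the transmembrane collagens, none of which reached the filter, Col23a1 had at most 0.366 TPM in any mutant library, against 1.89, 2.46 and 1.89 TPM in WT libraries, and Col17a1, a collagen of epithelial hemidesmosomes, had 1.47, 1.10 and 0.910 TPM in E71K libraries and at most 1.03 TPM in other mutant libraries, against 1.43, 1.86 and 1.69 TPM in WT libraries. Col13a1 and Col25a1 were at 0.133 TPM or less in every library, and Col26a1, the remaining unclassed member, at 0.234 TPM or less. When the model was fitted with no filter on low genes, Col23a1 was called lower in all 6 mutants.

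At E76, the lysine and glutamine forms were called on opposite sides of WT for Col9a1, Col28a1 and, with calls that did not hold in every alternative, Col6a2. In E76K against E76Q, with no WT library in the comparison, 5 of the 25 were called higher and 14 lower (all genes 23.4% and 8.46%, or 31.9% in either direction), with a median log2 difference of -1.06 beside 0.14 for all genes. The 5 tested FACITs were all lower in E76K than in E76Q, as were Col28a1 (-4.07 ± 0.15, adjusted p = 7.79e-13) and all of Col6a1, Col6a2 and Col6a3. Col9a1 differed most, with 1.23 ± 0.342 TPM in E76K and 253 ± 11.7 TPM in E76Q (-6.84 ± 0.52, adjusted p = 1.79e-08). Col2a1 (-3.34 ± 0.29, adjusted p = 1.23e-07) and Col12a1 (-2.80 ± 0.19, adjusted p = 4.6e-09) were also lower in E76K, and Col18a1 (2.96 ± 0.12, adjusted p = 3.23e-12), Col7a1 (0.89 ± 0.18, adjusted p = 0.00101), Col4a1 (0.83 ± 0.17, adjusted p = 0.00111), Col1a2 (0.73 ± 0.13, adjusted p = 0.000374) and Col1a1 (0.37 ± 0.12, adjusted p = 0.0323) were higher in E76K. In E71K against E71Q, 2 were higher and 9 lower (all genes 12.8% and 12.3%, or 25.1% in either direction; median -0.73 beside 0). Those lower in E71K included Col28a1 (-1.31 ± 0.15, adjusted p = 7.91e-06), Col3a1 (-1.29 ± 0.38, adjusted p = 0.0206), Col4a1 (-1.19 ± 0.17, adjusted p = 8.53e-05) and the type VI chains Col6a1, Col6a2 and Col6a3 (-1.11, -1.24 and -1.04). The higher ones were Col18a1 and Col1a1. This count, 11 of 25 in both directions together, changed with the libraries in the fit. It rose to 20 without E71K replicate 3 and to 22 without all 4 libraries that stood apart. Without E71K replicate 1, which is not among those 4, it fell to 7. With only E71K and E71Q libraries in the limma fit it was 0, and none of the E71K against E71Q calls held. Calls over all 12192 tested genes fell as well, to 346 in that fit from 3060 in the fit of all groups. The 0 is therefore not particular to collagen genes. There 8 of the 25 had an unadjusted p below 0.05, and their lowest adjusted p was 0.0517. In E113K against E113Q, 5 were higher and 3 lower (all genes 14.6% and 13.3%, or 28% in either direction); the higher ones were Col12a1, Col6a3, Col5a1, Col4a1 and Col18a1 (0.98, 0.99, 0.75, 0.72 and 0.66) and the lower ones Col2a1 (-2.09 ± 0.29, adjusted p = 6.32e-05), Col8a1 (-1.28 ± 0.33, adjusted p = 0.00745) and Col28a1 (-1.03 ± 0.15, adjusted p = 7.56e-05). Without the 4 libraries this count was 18, and without E71K replicate 3 alone it was 13. The shares of all tested genes called with libraries left out are not given here. Col28a1 was lower and Col18a1 higher in the lysine form than in the glutamine form at all 3 residues. The size of the lysine minus glutamine difference itself differed between E76 and E71 for 7 of the 25 (limma interaction; 21.7% of all genes), between E113 and E71 for 10 (32.7% of all genes) and between E113 and E76 for 15 (29.5% of all genes).

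Ratios between chains of one collagen type were compared within each library, so that scaling of a library cancels. For type I, whose usual molecule holds more chains from Col1a1 than from Col1a2, the Col1a1 to Col1a2 ratio of TPM was 0.508 ± 0.113 in E71K, 0.39 ± 0.0615 in E71Q, 0.364 ± 0.0624 in E76K and a mean of 0.464 ± 0.00389 in E76Q libraries. The Col1a1 to Col1a2 ratio was 0.586 ± 0.0137 in E113K and 0.848 ± 0.0579 in E113Q libraries, against 1.13 ± 0.0132 in WT libraries (SD, n = 3 each). Every mutant library had less Col1a1 than Col1a2, and every WT library more. For type V, the Col5a1 to Col5a2 ratio lay between 0.314 ± 0.0561 in E71Q and 0.682 ± 0.0303 in E113K, against 0.94 ± 0.0268 in WT libraries, without overlap in any mutant. For type VI, the Col6a1 to Col6a2 ratio was between 1.29 ± 0.105 in E71Q and 1.63 ± 0.0726 in E76K, against 1.01 ± 0.0204 in WT libraries, again without overlap. For type IV, the Col4a1 to Col4a2 ratio was 0.749 ± 0.155 in E71K, 1.44 ± 0.144 in E71Q, 2.36 ± 0.131 in E76K and a mean of 0.878 ± 0.0151 in E76Q libraries. The Col4a1 to Col4a2 ratio was 2.28 ± 0.00917 in E113K and 1.97 ± 0.122 in E113Q libraries, against 2.08 ± 0.0349 in WT libraries. Both E71 mutants and E76Q lay below the WT range, E76K and E113K above it, and E113Q overlapped it. The Col11a1 to Col5a1 ratio, between chains of types XI and V, was between 0.711 ± 0.23 in E76K and 1.46 ± 0.637 in E71Q, against 0.13 ± 0.0172 in WT libraries. Groups that did not overlap gave an exact two-sided permutation p of 0.1, the smallest that 3 libraries against 3 allow, so no ratio could pass 0.05 in this test; ratios were not tested with a spread shared by all groups.

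**Figure D5:**
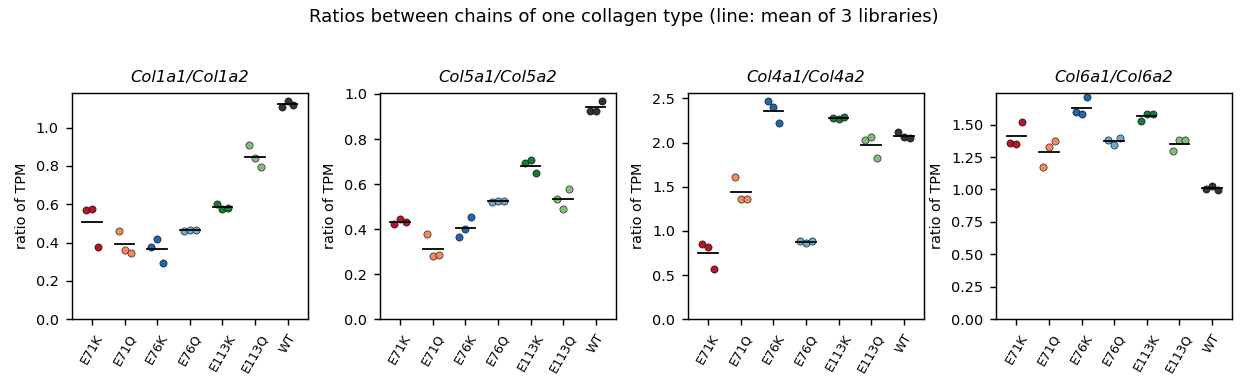
Ratio of TPM between 2 chains of one collagen type in each library (points) with the mean of 3 libraries (line), axes from 0. The Col1a1 to Col1a2 and Col5a1 to Col5a2 ratios are lower in all mutant libraries than in WT, the Col6a1 to Col6a2 ratio is higher, and the Col4a1 to Col4a2 ratio is under 1 in E71K and E76Q.

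Other genes of the collagen pathway were read from 2 lists. Of 35 genes that modify, fold, secrete, trim or cross-link collagen chains, 31 were tested, and 11 were called higher and 4 lower in E71K, 17 and 3 in E71Q, 12 and 2 in E76K, 19 and 2 in E76Q, 18 and 1 in E113K and 14 and 2 in E113Q, with medians of 0.28, 0.55, 0.52, 0.60, 0.48 and 0.42 on the log2 scale beside 0, 0, 0.16, 0.02, 0.13 and 0.06 for all tested genes. Of all tested genes 12.5% were called higher and 14.2% lower in E71K, 20.7% and 23.5% in E71Q, 23.5% and 9.67% in E76K, 22% and 22.4% in E76Q, 30.3% and 20.7% in E113K, and 17.9% and 12.7% in E113Q. P3h2, a prolyl 3-hydroxylase that acts on type IV and fibrillar chains, averaged 11.8 ± 6.96 TPM in E71K, 39.5 ± 1.77 in E71Q, 11.9 ± 4.68 in E76K and 18 ± 0.779 TPM in E76Q. P3h2 averaged 9.26 ± 0.61 TPM in E113K and 22.2 ± 0.727 in E113Q, against 0.497 ± 0.162 TPM in WT libraries (SD, n = 3 each). It rose in all 6 mutants, by 2.78 in E113K to 4.76 in E71Q on the log2 scale. P3h4, which works with lysyl hydroxylase, and Tmem38b, an ion channel of the endoplasmic reticulum needed for collagen modification, were likewise called higher in all 6. Plod2, which hydroxylates lysines at the chain ends and so sets the kind of cross-link, averaged 60.4 ± 48.8 TPM in E71K, 119 ± 62 in E71Q and 121 ± 3.6 TPM in E76Q. Plod2 averaged 66.1 ± 4.91 TPM in E113K and 23.1 ± 4.61 in E113Q, against 9.07 ± 0.178 TPM in WT libraries. It was called higher in these 5 mutants and not in E76K, at 10.8 ± 0.807 TPM. Pcolce2, an enhancer of procollagen trimming, rose in E71Q to 378 ± 19 TPM and in E76Q to 247 ± 9.36 TPM and fell in E76K to 31.5 ± 15.1 TPM, against 53.1 ± 2 TPM in WT libraries. Loxl4, a lysyl oxidase-like cross-linking enzyme, fell in 5 mutants, most in E113Q, at 40.5 ± 7.69 TPM against 97.6 ± 5.32 TPM in WT libraries (log2 fold change -1.27, SE 0.15, adjusted p = 3.99e-06). Its relatives in the list did not fall with it. Lox, at a mean of 587 TPM over all libraries against 70.3 TPM for Loxl4, was called higher in 5 mutants and lower in 0. Loxl1 was called higher in 2 mutants and lower in 0, and Loxl3 was called in 0. Creb3l1, a transcription factor of the endoplasmic reticulum that acts on type I collagen genes in bone, was lower in E71K, at 6.29 ± 2.43 TPM against 34.7 ± 1.77 TPM in WT libraries (log2 fold change -2.35, SE 0.23, adjusted p = 4.89e-07).

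Among 15 collagen receptors and collagen-degrading enzymes, 8 were tested; 2 were called higher and 1 lower in E71K, and 5 in E71Q, 3 in E76K, 3 in E76Q, 6 in E113K and 3 in E113Q were called higher with 0 lower. Of all tested genes, 12.5% to 30.3% were called higher and 9.67% to 23.5% lower, depending on the mutant. Itga1, the alpha subunit of a collagen-binding integrin, averaged 15.8 ± 3.34 TPM in E71Q, 12.6 ± 0.479 in E76Q and 5.83 ± 1.96 in E71K, against 1.01 ± 0.208 TPM in WT libraries, with log2 rises of 3.05, 2.76 and 1.73 (SE 0.19 each). It was also called higher in E76K, at 2.72 ± 0.627 TPM (log2 fold change 0.88, SE 0.19, adjusted p = 0.00203). Mmp14, a membrane-bound collagenase, averaged 798 ± 10.3 TPM in E113K against 119 ± 9.05 TPM in WT libraries (log2 fold change 2.74, SE 0.39, adjusted p = 2.31e-05). It was also called higher in E71Q, E76K and E113Q, with log2 rises of 1.69, 1.57 and 1.57 (SE 0.39 each). Mrc2, a receptor that takes up collagen fragments, was called lower in E71K, at 49.6 ± 22.8 TPM, and higher in E113K, at 215 ± 3.02 TPM, against 81.1 ± 3.06 TPM in WT libraries.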

How the data were processed

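RNA-seq of 21 libraries (7 groups of 3, grouped by the genotype label) was used as a TPM table. Per the labels, RNA came from an RNeasy kit and library preparation used NEBNext Ultra II reagents; poly(A) selection and strandedness are not given in the sources used here. The TPM values were used as the authors deposited them; the submitters' processing notes name Salmon, featureCounts 1.4.4, DESeq and build mm10 without saying which made them. The deposited group means (largest difference from means taken here 3.3e-10) were not used further. TPM keeps no read total, so depth and counting error are unknown.

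The 12192 of 24091 genes that averaged 1 TPM or more were analysed as log2(TPM + 1) in 1 limma 3.58.1 fit (R 4.3.3) of all 7 groups, with moderated variances and a trend, for 6 mutants against WT, 3 lysine against glutamine comparisons, 3 interactions and an F test. Within a comparison, Benjamini-Hochberg adjustment covered the p-values of all tested genes. The fitting steps were tested on simulated data. Alternatives were pseudocounts of 0.1 and 5, no filter or a mean of at least 5 TPM, median-ratio rescaling on 8056 genes, Mir6236 left out, no trend, only the groups compared, a replicate block, the 4 libraries that stand apart left out, and each library left out in turn. Values per library are given for the highest and the most variable tested members of each class and for further members of interest. From the pathway lists, up to 3 called genes per direction and mutant with a mean of at least 5 TPM were eligible to be named. Further genes of the lists were named where they were called in all 6 mutants or are relatives of a named gene. Sequences and promoter windows are RefSeq's, build GRCm38.p6, and exons GENCODE's. The members and lists were chosen with earlier results of these data known.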

Additional observations from a re-analysis of the deposited data

Results flagged for a closer look

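The difference between the lysine and the glutamine form was itself compared between residues, and the collagen genes below passed that test (limma interaction, Benjamini-Hochberg adjusted p below 0.05 over all tested genes); values are log2 differences of differences on log2(TPM + 1). Of the 25 tested members, 7 passed for E76 against E71, where 21.7% of all genes did, 10 for E113 against E71 (32.7% of all genes) and 15 for E113 against E76 (29.5% of all genes). The 3 interactions share mutant libraries with each other and with the pairs given above.

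For E76 minus E71, the cartilage genes Col9a1 (-7.52, adjusted p = 6.82e-07) and Col2a1 (-3.70, adjusted p = 3.73e-06) had the largest values, followed by Col28a1 (-2.76) and Col12a1 (-2.07); Col18a1 (2.35), Col4a1 (2.02) and Col1a2 (0.57) went the other way. Col9a1 averaged 1.23 TPM in E76K and 253 TPM in E76Q, but 105 TPM in E71K and 54.0 TPM in E71Q, where replicate 3 of E71K and replicate 1 of E71Q stood apart.

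For E113 minus E71, Col3a1 (2.03, adjusted p = 0.00806), Col6a3 (2.03, adjusted p = 0.00023), Col4a1 (1.91), Col12a1 (1.71), Col5a2 (1.32), Col4a5 (1.27), Col5a1 (1.20) and Col16a1 (0.88) were positive, and Col2a1 (-2.45, adjusted p = 0.000319) and Col1a1 (-0.86) negative.

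For E113 minus E76, the positive values were Col9a1 (5.71, adjusted p = 2.16e-05), Col12a1 (3.78, adjusted p = 1.67e-08), Col28a1 (3.04), Col11a1 (2.41), Col6a3 (1.86), Col5a1 (1.68), Col3a1 (1.67), Col16a1 (1.42), Col2a1 (1.25), Col4a2 (1.09) and Col6a2 (1.0). The negative ones were Col18a1 (-2.29, adjusted p = 1.94e-08), Col7a1 (-0.96), Col1a1 (-0.70) and Col1a2 (-0.53). Col4a2, called in no mutant against WT, is among them at an adjusted p of 0.0267.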

How the results depend on the processing

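No collagen gene's called difference from WT reversed sign under any alternative. Of the 89 calls of a member in a mutant, 89 held with a pseudocount of 0.1 and 89 with the replicate block; 7 were lost with no filter, 6 with only the groups compared, 2 without the trend, 2 without the 4 libraries that stand apart, and 1 each with a pseudocount of 5, median-ratio rescaling and Mir6236 left out. At a mean of at least 5 TPM, 1 of the 77 calls tested there was lost. Leaving out 1 library at a time lost the call in 105 of 1869 values, and 17 of the 89 calls were lost in some alternative. The calls of the 6 genes that moved one way in all mutants held in every alternative that tested them, other than Col4a5 in E71K with only the groups compared. The alternative of testing all-mutant calls under each setting was chosen after seeing the data; it gave 3 to 5 genes higher in all 6 (3 with only the groups compared, 5 without the 4 libraries) and 1 to 3 lower (1 at a mean of at least 5 TPM, where Col7a1 was not tested; 3 where Col18a1, or with no filter Col23a1, joined). The causes of these changes were not tested.

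Counts of called collagen genes moved by over 1.5 times as follows. Unless stated, no share of all tested genes called under the same setting is given, here or in the paragraphs that follow. Counts without that share cannot be read as a change particular to collagen genes. With no filter: 9 higher in E76K, 7 lower in E76Q, 8 lower in E113K and 13 in the E76 minus E71 interaction. With median-ratio rescaling: 12 lower in E76K and 11 in the E76 minus E71 interaction; this scaling brought the median of all genes in E76K to 0.01 where it had been 0.16, and in E113K to 0.01 where it had been 0.13. With only the groups compared: 4 higher in E71K, 13 lower in E76K, 9 lower in E113K, 0 in E71K against E71Q, 14 in E113K against E113Q and 5 in the E113 minus E71 interaction. Over all 12192 tested genes, this setting called 346 in E71K against E71Q, where the main fit called 3060. In E113K against E113Q it called 4213, where the main fit called 3408. Without the 4 libraries that stand apart: 10 lower in E71K, 15 lower in E76K, 8 lower in E113K, 22 in E71K against E71Q, 18 in E113K against E113Q, 13 in the E76 minus E71 interaction and 19 in that of E113 minus E71.

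Leaving out 1 library at a time, counts higher ran from 5 to 9 in E71K, 12 to 15 in E71Q, 4 to 5 in E76K, 11 to 16 in E76Q, 8 to 9 in E113K and 7 to 10 in E113Q. Counts lower ran from 4 to 6 in E71K, 4 to 5 in E71Q, 5 to 11 in E76K (11 without E71K replicate 3), 4 to 5 in E76Q, 5 to 6 in E113K and 5 to 8 in E113Q. Lysine against glutamine counts ran from 7 to 20 at E71, 14 to 24 at E76 and 7 to 13 at E113; interactions from 6 to 9 (E76 minus E71), 9 to 15 (E113 minus E71) and 9 to 19 (E113 minus E76; 9 without E76Q replicate 2 or 3, E113K replicate 3, or E113Q replicate 1 or 2); and the F test from 22 to 25. The chain ratios checked with 1 TPM added to each chain stayed within 1 SD, other than Col4a1 to Col4a2 in E113K (2.28 and 2.27). Ratios of Col9a1 or Col9a3 to Col9a2 and of Col8a1 to Col8a2, whose second chain is below the filter, were left out of this check. The Col8a1 to Col8a2 ratio in E113K was 0.0912 ± 0.0578 without and 0.282 ± 0.0693 with the added 1 TPM. In WT it was 485 ± 376 and 25.6 ± 2.17.

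The replicate numbers in the sample titles do not say whether same-numbered libraries were handled together. Deviations of same-numbered libraries correlated between -0.174 and 0.416 (median -0.00111), and 13 of 63 pairs were above 0.1. For libraries with different numbers the median was -0.00132, and 15 of 126 pairs were above 0.1. Of 21 libraries, 7 correlated best with their own number. With the replicate block, counts higher and lower were 7 and 4 in E71K, 15 and 5 in E71Q, 5 and 9 in E76K, 15 and 4 in E76Q, 8 and 5 in E113K and 9 and 6 in E113Q. Read depth is unknown, so levels under 1 TPM carry no stated precision.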
